A study of Mus musculus with 16 samples.

Results

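The presynaptic vesicle machinery is the set of proteins that dock, prime, fuse and retrieve neurotransmitter vesicles at axon terminals. Its transcripts were followed here as 34 genes, chosen as a list of symbols that each matched a row in all 16 deposited tables, out of 24060 genes in each table. The libraries came from the somatosensory cortex of Aldh1l1CreERT2-RiboTag mice on a C57BL/6J background, aged 3 months. All mice, naïve and stressed alike, received tamoxifen by intraperitoneal injection at 2 months of age, so that Cre driven from the astrocyte gene Aldh1l1 switched on an HA-tagged ribosomal protein. Messenger RNA bound to tagged ribosomes was pulled down with an antibody against HA (IP), and the cleared lysate of the same tissue served as INPUT, which holds RNA of all cell types. Stressed mice swam for 20 min and then rested for 90 min in the home cage, and naïve mice remained in the home cage. Each fraction of each condition had 4 libraries, named below by the library numbers in their labels. The methods give 4 males and 4 females without saying which library came from which sex, and they place the experiment 2 weeks after the last tamoxifen injection, where the labels give 1 month. Which IP and INPUT libraries came from the same mouse is not stated, and the labels do not say more than that the libraries are separate, so p-values measure the spread between these libraries.

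A vesicle fuses when a SNARE protein in its own membrane (a VAMP) zips up with the SNAREs of the plasma membrane (a syntaxin and a SNAP protein), at a site organised by active-zone scaffolds next to calcium channels, with a synaptotagmin as the calcium sensor. Afterwards the complex is taken apart by NSF, and the membrane is retrieved by clathrin, dynamin and their partners. In the cortex these genes are best known from neurons, but the machinery belongs to larger families whose other members serve secretion and endosome traffic in every cell, astrocytes included.

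Between 16392876 and 25814364 reads were counted on genes in each library (median 21167241). All 10 astrocyte markers examined were higher in naïve IP than in naïve INPUT (median log2 ratio 3.51), and their summed level ran from 115000 to 119000 CPM in naïve IP and from 8180 to 8680 CPM in naïve INPUT, where CPM is reads per 1000000 counted on genes. Neuronal markers were low in IP but not at 0. The 6 excitatory markers summed to 107 to 145 CPM in naïve IP and 1780 to 1950 CPM in naïve INPUT, and the 6 inhibitory markers to 29.3 to 49.2 CPM and 840 to 887 CPM. All 7 microglial, 6 endothelial and 3 oligodendrocyte precursor markers and 7 of 8 oligodendrocyte markers were lower in naïve IP, and of 2 mural markers 1 was higher and 1 lower. A list of 20 neuronal genes without a role in the vesicle cycle (such as Rbfox3, Tubb3, Nefl and Camk2a) served as a reference, and all 20 were lower in IP, with log2 ratios from −4.71 to −2.48. The stress IP library 15 stood apart from the other 3 stress IP libraries for many of the genes described here, and results that rest on it are given with and without it.

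Promoter windows of 250 bases before to 50 after the start of transcription (RefSeq, GRCm38.p6) were found for 27 of the 34 genes, with 34 windows in all. They were searched on both strands for CAGCACC and GGACAG, the left and right parts of the RE1 element that is bound by REST, a repressor of neuronal genes in non-neuronal cells. CAGCACC was in 2 of these windows, those of Syn1 and Unc13a, against 7.14% of all 32851 promoter windows. GGACAG was in 7 (Slc17a7, Snap91, Sv2b, Syngr1, Syt1, Syt11 and Unc13a), against 22.2% of all windows. The 2 genes with CAGCACC are shown, upstream of any annotated exon, on the minus strand with matches in capitals, from chrX:20921005-20921168 for Syn1 and chr8:71671758-71672007 for Unc13a.
Syn1: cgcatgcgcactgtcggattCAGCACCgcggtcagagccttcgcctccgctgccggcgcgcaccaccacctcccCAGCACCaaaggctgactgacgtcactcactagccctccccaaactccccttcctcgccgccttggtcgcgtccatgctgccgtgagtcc
Unc13a: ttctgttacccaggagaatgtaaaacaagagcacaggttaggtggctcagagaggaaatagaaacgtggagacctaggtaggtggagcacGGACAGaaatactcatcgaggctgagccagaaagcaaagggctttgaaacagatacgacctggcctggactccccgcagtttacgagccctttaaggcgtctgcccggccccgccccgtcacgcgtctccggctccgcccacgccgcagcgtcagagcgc
In Syn1 the first bases of the matches lay 230 and 176 bases before the RefSeq start. In Unc13a the GGACAG shown began 160 bases before it. A second GGACAG and the CAGCACC lay past the start on the other strand, at positions 9 and 23, outside the bases shown. These letters describe the windows and say nothing of binding in these cells. In naïve IP, Syn1 was at 12.3% and Unc13a at 22.8% of its INPUT level.

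The first comparison asked how far each transcript was depleted in astrocyte IP. Of the 34 genes, 32 were lower in naïve IP than in naïve INPUT (limma, Benjamini-Hochberg adjusted p under 0.05 over all genes), against 64.0% of the 13339 genes tested. Only Vamp3 among the 34 was higher, against 23.7% of all genes, and Syt11 passed in neither direction. The median log2 IP/INPUT ratio of the 34 genes was −3.32, beside −0.64 over all genes tested. Libraries were scaled to their own totals, and rescaling by the median ratio moved that all-gene median to −0.0005 and split all calls into 5599 higher and 5635 lower in place of 3158 and 8540. Relative to the typical gene the median of the 34 was then −2.68, with 2 genes higher (Vamp3 and Syt11) and the same count of 32 lower. In bulk tissue, fewer cells of a type and less RNA per cell cannot be told apart, and the same holds for RNA carried into the IP from other cells. An IP/INPUT ratio also sets RNA bound to ribosomes against total RNA of the lysate. The share of each transcript on ribosomes is thus part of its ratio and was not tested.

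In stressed mice the picture was much the same, with 32 genes lower (62.5% of 13333 genes in all), Vamp3 higher (23.6%) and Syt11 not called, at a median log2 ratio of −3.47 beside −0.63 over all genes. Without library 15 the counts were again 32 (61.8% of all genes) and 1 (23.4%), with a median of −3.59, and Bsn moved from −1.82 to −2.22. No value of any of the 34 genes in naïve IP lay among its naïve INPUT values, and in stressed mice Syt11 alone overlapped, where 83.7% of all genes in naïve and 81.4% in stressed mice had no overlap. Together the 34 genes made up 2.63% ± 0.0529 of the reads in naïve INPUT and 0.333% ± 0.0199 in naïve IP (SD, n = 4 each). The ratios spread over more than 5 log2 units. Under −4 lay 10 genes (Syngr3, Snap25, Napb, Cplx1, Sv2b, Stx1a, Dnm1, Slc17a7, Syt4 and Rab3a), between −4 and −3 lay 11, between −3 and −1.5 lay 11, and above these lay Syt11 and Vamp3.

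**Figure D1:**
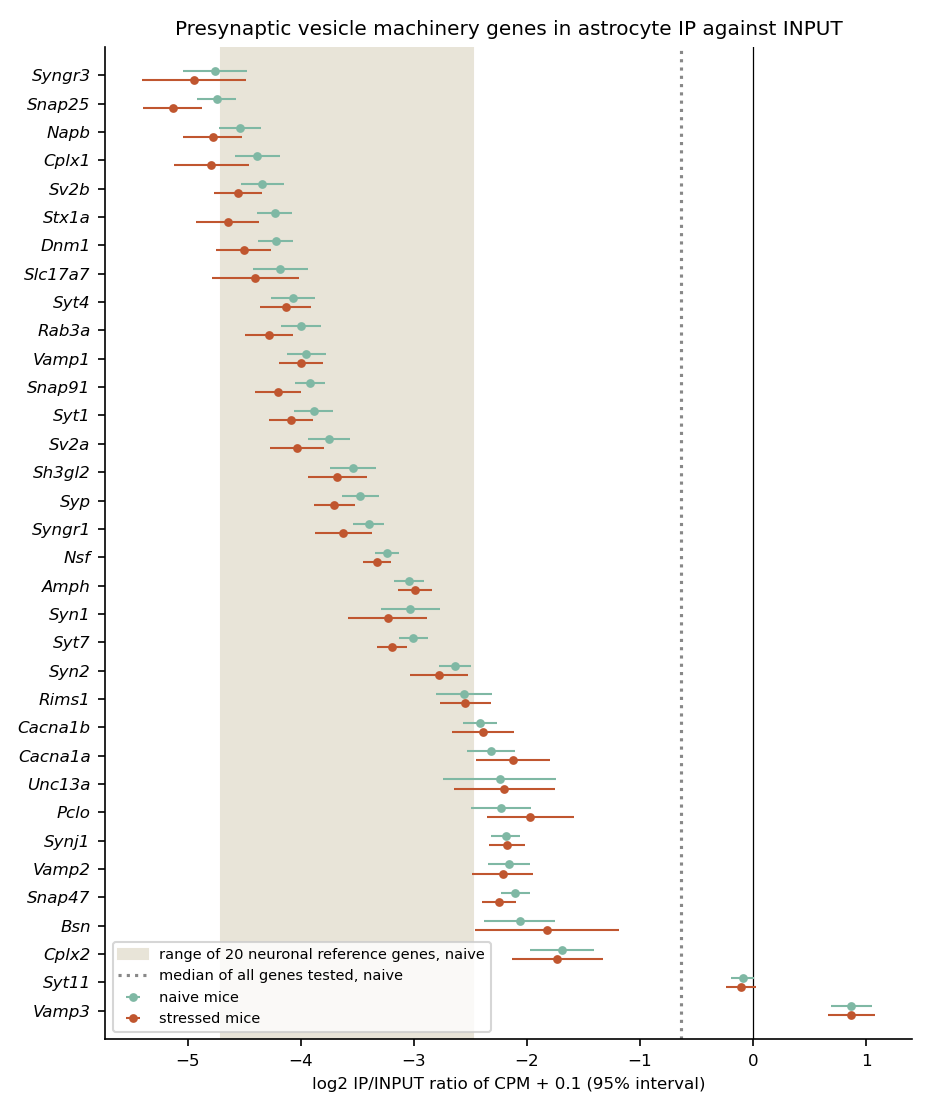
Log2 IP/INPUT ratio (x axis) of the 34 genes (y axis, ordered by the naïve ratio) in naïve and stressed mice, with 95% intervals from 4 IP and 4 INPUT libraries each. The shaded band spans the 20 neuronal reference genes (−4.71 to −2.48) and the dotted line is the all-gene median of −0.64. Syngr3 at −4.76 is the lowest in naïve mice, Cplx2 at −1.69 is the highest of the depleted genes, and Syt11 and Vamp3 stand apart at −0.09 and 0.87.

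Genes of membrane fusion spanned the whole range. Snap25, the SNAP protein of the neuronal plasma membrane, had the highest level per kilobase of exon of the 34 genes in INPUT, and was the second most depleted in naïve mice and the most depleted in stressed mice. In naïve INPUT it was at 5960, 5890, 5990 and 5730 CPM (libraries 3, 7, 14 and 16), and in naïve IP at 231, 186, 215 and 253 CPM (libraries 2, 8, 11 and 13). The IP thus held 3.76% of the INPUT level, a log2 ratio of −4.74 ± 0.079 (SE), with a limma adjusted p of 1.04e-14. In stressed mice the INPUT values were 5900, 6880, 6070 and 5720 CPM (libraries 1, 9, 10 and 12), and the IP values 166, 146, 167 and 231 CPM (libraries 4, 5, 6 and 15), a ratio of −5.13 ± 0.12. The libraries are given in this order throughout.

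Stx1a, the syntaxin that pairs with Snap25, was at 329, 321, 360 and 350 CPM in naïve INPUT and at 20.0, 16.1, 17.6 and 18.7 CPM in naïve IP, a log2 ratio of −4.23 ± 0.071 (limma adjusted p = 1.08e-14). Napb, the neuronal adaptor that recruits NSF to spent SNARE complexes, fell from 985, 893, 988 and 941 CPM to 44.8, 33.1, 43.1 and 43.4 CPM, a ratio of −4.54 ± 0.085 (limma adjusted p = 2.1e-14). Both genes sat in the lowest 6 of the list, with an order of magnitude between the lowest INPUT and the highest IP value. Nsf itself, the ATPase that takes SNARE complexes apart and that all cells need for membrane traffic, had a ratio of −3.24 ± 0.049, with 936 to 970 CPM in naïve INPUT and 94.4 to 105 CPM in naïve IP.

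The complexins, which bind assembled SNAREs and hold fusion ready for calcium, differed widely from each other. Cplx1 was at 665, 699, 709 and 723 CPM in naïve INPUT and at 33.3, 27.4, 33.8 and 40.3 CPM in naïve IP, a log2 ratio of −4.38 ± 0.092 (limma adjusted p = 4.39e-14). Cplx2 was at 1020, 1200, 1100 and 1150 CPM in INPUT and still at 402, 367, 241 and 399 CPM in IP, a ratio of −1.69 ± 0.13 (limma adjusted p = 3.08e-08). IP thus held 4.82% of the INPUT level of Cplx1 and 31.6% of that of Cplx2, and Cplx2 had the highest ratio of the 32 depleted genes.

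The 3 VAMPs, the SNAREs of the vesicle membrane, fell into 3 levels. Vamp1 had 175 ± 13.1 CPM in naïve INPUT and 11.2 ± 1.06 CPM in naïve IP (SD, n = 4), a log2 ratio of −3.95 ± 0.080. Vamp2, the main VAMP of cortical synapses, was at 391, 475, 417 and 444 CPM in naïve INPUT and at 83.2, 94.5, 99.1 and 111 CPM in naïve IP, a ratio of −2.16 ± 0.084 (limma adjusted p = 1.66e-11). Vamp3, known as cellubrevin and used for endosome recycling in most cell types, went the other way. It was at 15.7, 17.8, 17.0 and 17.0 CPM in naïve INPUT and at 30.9, 32.3, 27.0 and 33.7 CPM in naïve IP, so that every IP value lay above every INPUT value. Its ratio was 0.87 ± 0.085 (limma adjusted p = 3.38e-07), and in stressed mice it was again 0.87 ± 0.097, with 34.2, 34.1, 32.6 and 28.9 CPM in IP and 19.5, 18.8, 15.2 and 17.4 CPM in INPUT (limma adjusted p = 2.54e-06). Snap47, a widely expressed relative of Snap25, was at 324, 316, 360 and 312 CPM in naïve INPUT and at 81.1, 74.6, 72.7 and 76.9 CPM in naïve IP, a ratio of −2.10 ± 0.059 (limma adjusted p = 6.13e-13).

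Among the 4 synaptotagmins, 3 were depleted and 1 was retained. Syt1, the calcium sensor of fast release, had a log2 ratio of −3.89 ± 0.079, and Syt4 of −4.07 ± 0.0905. Syt7, a slower sensor, was at 37.2 to 44.9 CPM in naïve IP and 327 to 336 CPM in naïve INPUT, with a ratio of −3.20 ± 0.061 in stressed mice. Syt11, which lacks the calcium binding of Syt1 and Syt7 and is known from membrane traffic in several cell types, was nearly level between the fractions. Its values were 786, 747, 763 and 796 CPM in naïve IP and 818, 848, 808 and 820 CPM in naïve INPUT. The IP values all lay just below the INPUT values, with a ratio of −0.09 ± 0.047 that did not pass (limma adjusted p = 0.082, two-sided exact permutation p = 0.0286 over the 70 labelings, the smallest they can give). In stressed mice the ratio was −0.11 ± 0.061 (limma adjusted p = 0.115), with overlapping values of 707, 739, 802 and 761 CPM in IP and 814, 853, 802 and 771 CPM in INPUT. The direction of Syt11 rests on the scaling: after rescaling by the median ratio its naïve ratio was 0.55 (limma adjusted p = 6.98e-07), and after quantile normalization −0.17 (limma adjusted p = 0.00757).

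Because the other genes were so low, Syt11 took a large share of what was left. It held 23.2% of the summed CPM of the 34 genes in naïve IP and 23.7% in stress IP, where Snap25 led INPUT with 22.4% and 23.3%. Per kilobase of exon, Syt11 ranked first in naïve IP at 169 CPM per kb, ahead of Snap25 at 99.1, Cplx2 at 71.4 and Syp at 48.5. In naïve INPUT, Snap25 ranked first at 2640 CPM per kb and Syt11 was number 12 at 180. Vamp3 was last of the 34 in naïve INPUT and number 14 in naïve IP at 14.6 CPM per kb.

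**Figure D2:**
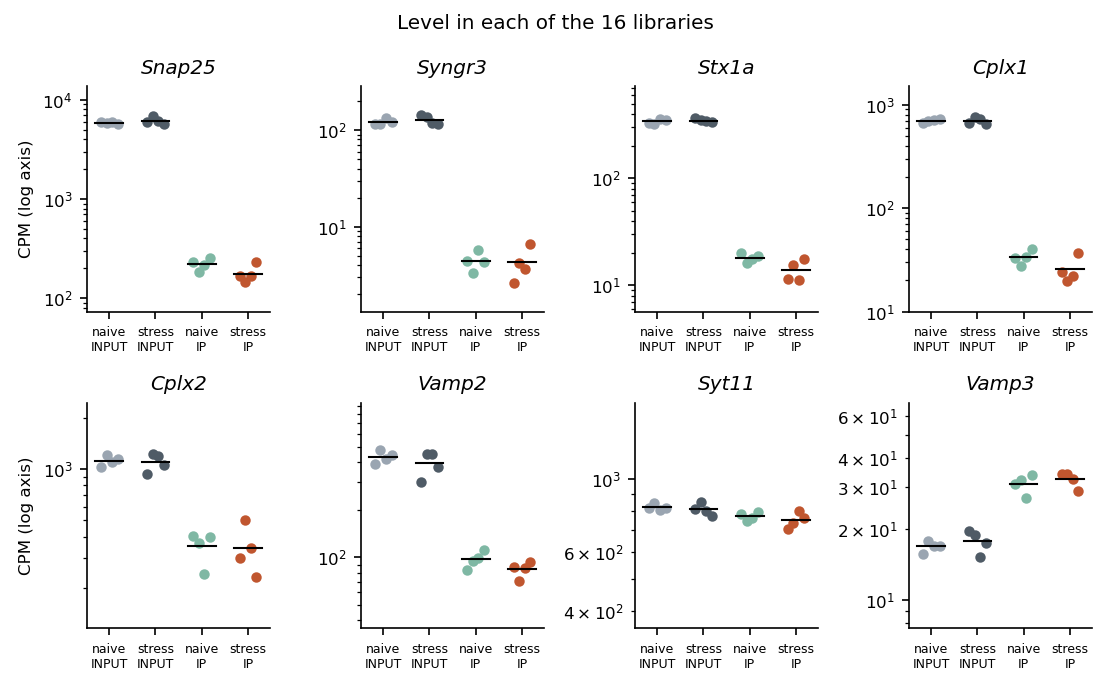
Level of 8 genes in each of the 16 libraries (y axis, CPM on a log axis with its own range per panel), by group on the x axis, with 1 point per library and a line at the group mean. Snap25, Syngr3, Stx1a and Cplx1 drop by more than 4 log2 units from INPUT to IP in naïve mice, Cplx2 and Vamp2 by less, Syt11 lies near the same level in all groups, and Vamp3 is higher in IP.

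All 9 genes of the vesicle itself were depleted, with a median log2 ratio of −3.75 in naïve mice. Syngr3, a membrane protein of the vesicle, had the lowest ratio of the 34 in naïve mice, by less than its standard error from Snap25, while Snap25 was lowest in stressed mice. It was at 116, 115, 132 and 120 CPM in naïve INPUT and at 4.41, 3.31, 5.72 and 4.34 CPM in naïve IP, a ratio of −4.76 ± 0.13 (limma adjusted p = 4.35e-13). It kept at least 59 reads in every IP library. Its relative Syngr1 was less depleted at −3.40 ± 0.064. Sv2b, a vesicle glycoprotein, was at 1010, 923, 1110 and 945 CPM in naïve INPUT and at 51.6, 40.3, 54.4 and 51.0 CPM in naïve IP, a ratio of −4.34 ± 0.089 (limma adjusted p = 3.67e-14), and Sv2a followed at −3.75 ± 0.086.

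Slc17a7, the transporter that fills cortical vesicles with glutamate, had a log2 ratio of −4.18 ± 0.11, and Rab3a, the small GTPase of the vesicle surface, was at 32.3 to 42.1 CPM in naïve IP and 566 to 675 CPM in naïve INPUT. Syp, an abundant vesicle membrane protein, had a ratio of −3.47 ± 0.075. The synapsins, which tether vesicles to each other and to actin, were the mildest of this group, with −3.03 ± 0.12 for Syn1 and −2.63 ± 0.066 for Syn2. The pattern across this group in stressed mice ran from −4.94 to −2.78.

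Active-zone scaffolds and calcium channels kept a larger part of their INPUT level than most vesicle genes. The 4 active-zone genes had log2 ratios between −2.56 and −2.06 and the 2 channel genes −2.41 and −2.32. Bsn, which with Pclo forms the giant scaffold of the active zone, was at 724, 950, 689 and 863 CPM in naïve INPUT and at 146, 175, 251 and 209 CPM in naïve IP, a ratio of −2.06 ± 0.14 (limma adjusted p = 9.58e-09). Pclo had a ratio of −2.23 ± 0.12, Unc13a, the priming factor that opens syntaxin, of −2.24 ± 0.23, and Rims1, which joins vesicles to channels, of −2.56 ± 0.12. Cacna1a and Cacna1b, the pore subunits of the P/Q-type and N-type channels that trigger release, had −2.32 ± 0.097 and −2.41 ± 0.069. IP levels were 58.7 ± 5.4 CPM and 32.2 ± 2.27 CPM for the channels (SD, n = 4), at 19.9% and 18.8% of INPUT.

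These 6 genes have from 6458 to 22051 bases of exon, and 5 of them are the 5 longest of the 34, while Synj1, with 7234 bases, is longer than Rims1. Across the 34 genes the log2 ratio rose with exon length at Spearman rho = 0.354, across the 20 neuronal reference genes at rho = 0.689, and across 12673 genes of all kinds at 0.026. These are descriptions across genes that share the same libraries, and the part of transcript length in the ratios was not tested.

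The 5 genes of endocytosis, all depleted, covered a middle range with a median log2 ratio of −3.54. Dnm1, the neuronal dynamin that cuts vesicles from the membrane, was the lowest at −4.22 ± 0.071, with 1550 ± 68.5 CPM in naïve INPUT and 83.2 ± 8.76 CPM in naïve IP (SD, n = 4). Snap91, a clathrin assembly protein of nerve terminals, had −3.91 ± 0.061, Sh3gl2 (an endophilin, which bends the membrane) −3.54 ± 0.094, and Amph (amphiphysin, which recruits dynamin) −3.04 ± 0.061. Synj1, the lipid phosphatase that strips clathrin coats, was the least depleted at −2.19 ± 0.058, with 346 ± 15.4 CPM in INPUT and 75.9 ± 4.64 CPM in IP.

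A depletion of this size was also seen for neuronal genes outside the vesicle cycle, so the ratios were set against the mean of the 20 reference genes in each library. Of the 34 genes, 19 were above that mean (limma adjusted p under 0.05), against 93.5% of all 13339 genes, and 12 were below it, against 1.78%. The remaining 3 (Syt1, Sv2a and Sh3gl2) did not pass. Below the reference lay Syngr3 (−1.06), Snap25 (−1.04), Napb, Cplx1, Sv2b, Stx1a, Dnm1, Slc17a7, Syt4, Rab3a, Vamp1 and Snap91 (−0.21). Above it lay, beside Syt11 (3.61) and Vamp3 (4.57), all 6 genes of the active zone and channels, with Cplx2 (2.01) and Bsn (1.64) furthest among the depleted genes. The reference genes themselves scattered around their mean, with 7 of 20 above and 8 below it.

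The same fit in stressed mice, chosen after the data were seen, put 18 above (93.1% of all genes) and 12 below (1.87%), and 31 of the 34 genes were in the same class as in naïve mice. The exceptions were Syp (above in naïve mice, not called in stressed mice), Vamp1 (below, then not called) and Syt1 (not called, then below). Ratios in the 2 sets of mice, which share no library, differed by at most 0.42, with Spearman rho = 0.986 across the 34 genes as a description. The ratio was lower in stressed mice for 25 of the 34, where it was for 6839 of 13341 genes.

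Some relatives of these genes kept a larger part of their INPUT level in astrocyte IP. In 11 of 12 pairs with a relative outside the 34 genes, the relative had the higher log2 ratio, by up to 6.14. The pairs were picked by hand, and between 83.2% and 99.9% of all genes lay above the listed gene of a pair, so the count alone says little. Some relatives that were not paired went the other way, with Synpr at −4.31 against Syp at −3.47. Syt5 at −4.36 and Syt2 at −4.03 lay below Syt1 at −3.89, while Cplx3 at −4.39 lay beside Cplx1 at −4.38. Other unpaired relatives lay above the listed gene, such as Unc13c above Unc13a, Snap29 above Snap25 and Vamp8 above Vamp2. Dnm2, the dynamin of all cells, had a ratio of 1.92 ± 0.050, with 187 ± 6.46 CPM in naïve IP and 49.2 ± 0.563 CPM in naïve INPUT (SD, n = 4), where Dnm1 had −4.22. Snap23, the ubiquitous SNAP protein, had 1.32 ± 0.11, with 26.9 ± 0.614 CPM in IP and 10.8 ± 1.79 CPM in INPUT, where Snap25 had −4.74. In absolute CPM, Snap25 nevertheless stood at 221 ± 28.4 CPM in naïve IP, above Snap23.

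Syngr2 had 0.44 against −3.40 for Syngr1. Sypl, at −0.08 (Syp −3.47), did not pass (limma adjusted p = 0.414). Picalm at −0.13 (Snap91 −3.91), Unc13b at −0.24 (Unc13a −2.24), Stx4a at −0.48 (Stx1a −4.23) and Sh3gl1 at −0.62 (Sh3gl2 −3.54) passed as lower, though above the all-gene median. Rims2 lay 0.56 above Rims1. Napa at −1.88 (Napb −4.54) and Bin1 at −2.88 (Amph −3.04) were lower as well, and Synj2 at −3.18 lay below Synj1 at −2.19. Within the 34 genes, pairs of similar genes differed as well: Vamp3 lay 3.03 above Vamp2, Syt11 3.79 above Syt1 and 3.98 above Syt4, Cplx2 2.69 above Cplx1, Snap47 2.64 above Snap25, Vamp2 1.79 above Vamp1, Syn2 0.40 above Syn1, and Sv2b 0.59 below Sv2a.

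**Figure D3:**
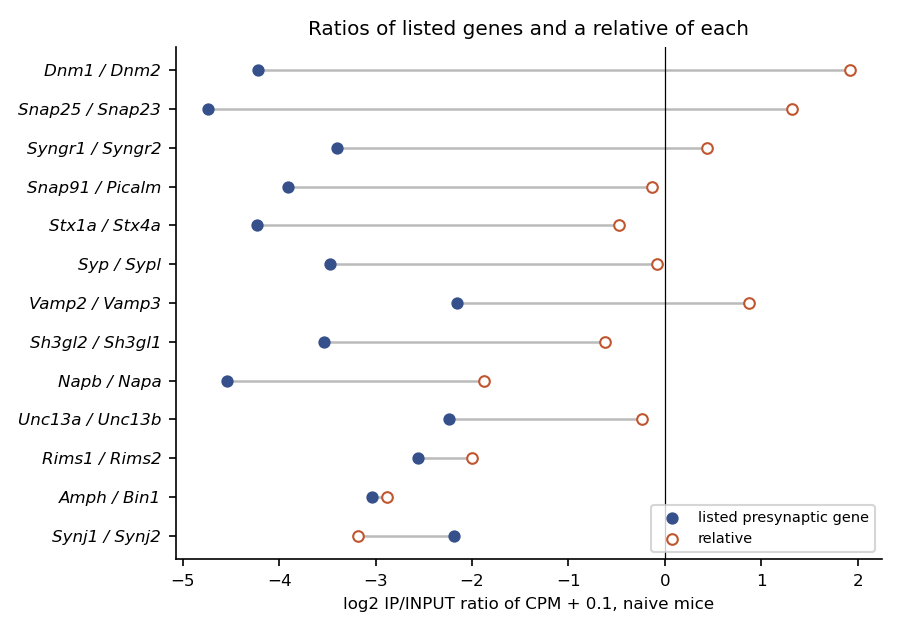
Log2 IP/INPUT ratio in naïve mice (x axis) of listed genes (filled) and a relative of each (open), 1 pair per row, with the 12 relatives outside the list and Vamp3. The relative lies to the right in each pair but Synj1 and Synj2, and the relatives Dnm2, Snap23, Syngr2 and Vamp3 are above 0.

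The rest of the vesicle cycle was read from a list of 99 further genes, of which 98 were in the tables and 95 were tested. There, 77 were lower and 13 higher in naïve IP (limma), where 64.0% and 23.7% of all 13339 genes were. The median log2 ratio was −2.27, beside −0.64 over all genes. Rescaling by the median ratio gave 68 lower and 22 higher, where 5635 and 5599 of the 13339 genes were. The 5 lowest were Slc32a1 (−4.68), the transporter that fills vesicles with GABA, Cplx3 (−4.39), Syt5 (−4.36), Synpr (−4.31) and Syt13 (−4.28). Cplx3 rests on few reads, down to 9 in a naïve IP library. The 5 highest were Stxbp3a (2.53), a partner of non-neuronal syntaxins, Dnm2 (1.92), Unc13c (1.78), Snap23 (1.32) and Vamp8 (1.29), an endosomal VAMP. Stxbp3a averaged 88.1 ± 11.1 CPM in naïve IP, against 15.1 ± 1.57 CPM in naïve INPUT (SD, n = 4). Unc13c, a relative of Unc13a, reached 137 ± 29.2 CPM in naïve IP and 39.0 ± 4.55 CPM in naïve INPUT.

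The next comparison asked whether the swim changed these transcripts in astrocyte IP. None of the 34 genes passed the test (limma, adjusted p under 0.05), against 0.44% of 12501 genes, and limma-voom called 0 as well. At an unadjusted p under 0.05 there were 7 genes, all lower after stress (Syp, Dnm1, Stx1a, Snap91, Snap25, Syt7 and Cplx1), against 8.27% of all genes in either direction. Every one of the 34 genes had overlapping naïve and stress values, where 5.0% of all genes had none. The median log2 stress/naïve ratio was −0.14, beside −0.0036 over all genes, and 26 of 34 ratios were negative, where 6383 of 12501 genes were. The 34 genes share the same libraries, so their signs are not independent and the count is a description.

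The 3 genes of smallest p were Syp, Dnm1 and Stx1a. Syp was at 126, 110, 130 and 136 CPM in naïve IP and at 99.2, 99.0, 106 and 122 CPM in stress IP, a log2 ratio of −0.24 ± 0.085 (limma adjusted p = 0.459). Dnm1 was at 79.1, 72.7, 90.4 and 90.4 CPM and at 55.1, 63.0, 63.1 and 85.1 CPM, a ratio of −0.33 ± 0.12 (limma adjusted p = 0.47). Stx1a was at the naïve values given above and at 11.5, 15.6, 11.3 and 17.7 CPM after stress, a ratio of −0.39 ± 0.14 (limma adjusted p = 0.49). In each, library 15 was the highest of the 4 stress libraries and the only one inside the naïve range. The 95% intervals of the 34 ratios reached from −0.79 (Cplx1) to 0.81 (Bsn), with a median SE of 0.126. Their width differed by gene, from −0.16 to 0.08 for Syt11 against −0.575 to 0.809 for Bsn. For each gene, only shifts within its own interval remain compatible with these libraries.

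Library 15 held the highest value of its group for 26 of the 34 genes, and for 27.7% of all genes tested. Naïve IP library 13 and stress INPUT library 9 each led their group for 19 of the 34, against 26.9% and 20.8% of all genes tested. Bsn was at 161, 166 and 145 CPM in stress libraries 4, 5 and 6 and at 477 CPM in library 15. Without library 15, 3 of the 34 genes passed in IP, against 0.808% of 12507 genes, and 17 had an unadjusted p under 0.05, all lower, against 12.9%. The 3 genes were Cplx1 at −0.60 ± 0.12 (limma adjusted p = 0.0447), Dnm1 at −0.46 ± 0.088 (limma adjusted p = 0.0356) and Snap25 at −0.46 ± 0.094 (limma adjusted p = 0.0466). Leaving out any other IP library gave 0. Library 15 was singled out for its high values of these same genes, so leaving it out lowers most of their stress means. The 3 calls are therefore not independent support for a stress effect.

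The neuronal reference genes had mostly negative stress ratios too, 17 of 20. Their summed level was 843, 789, 829 and 976 CPM in naïve IP and 719, 737, 725 and 909 CPM in stress IP, with library 15 again the highest, and their median log2 stress/naïve ratio was −0.13, and −0.22 without library 15. In that fit 1 of the 20 passed (Camk2b, −0.46, limma adjusted p = 0.0387). The 32 depleted genes summed to 2424, 2471, 2417 and 2795 CPM in naïve IP and to 2167, 2294, 2245 and 2856 CPM in stress IP. Set against the reference genes of each library, an alternative chosen after the data were seen, the median stress ratio of the 34 was −0.02 and 0 passed (limma, 0.464% of all genes), with 0 at an unadjusted p under 0.05 (7.2% of all genes). Without library 15 the median was −0.06 and again 0 passed (3.6% of all genes), with 9 of the 34 at an unadjusted p under 0.05, where 30.7% of all genes were, and the smallest limma adjusted p was 0.0557, for Cplx1. Limma-voom was not run on these values. The part of neuronal RNA in the stress ratios was not tested beyond these values.

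**Figure D4:**
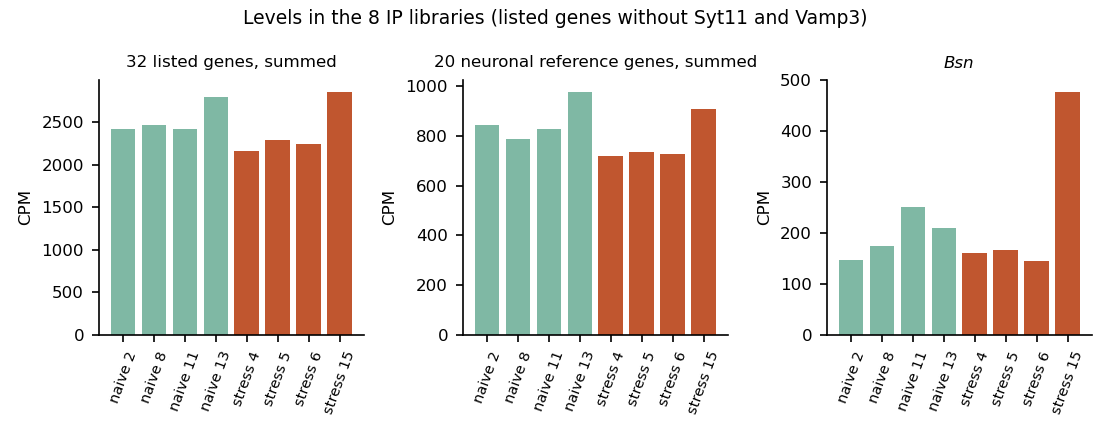
CPM (y axis, from 0) in each of the 8 IP libraries (x axis) for the sum of the 32 depleted genes, the sum of the 20 neuronal reference genes, and Bsn. Stress libraries 4, 5 and 6 lie below every naïve library in both sums (2167 to 2294 and 719 to 737 CPM), while stress library 15 reaches 2856 and 909 CPM, and Bsn is at 477 CPM in library 15.

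In INPUT, none of the 34 genes passed for stress (limma adjusted), against 0.0442% of 13577 genes, limma-voom called 0, and at an unadjusted p under 0.05 there were 0, against 5.03% of all genes. All 34 genes overlapped, where 2.87% of all genes did not. The median log2 stress/naïve ratio was −0.01, with 16 ratios above and 18 below 0. The 95% intervals lay between −0.42 (Pclo) and 0.27 (Vamp3), narrower than in IP.

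The 3 genes of smallest p in INPUT were Syn1, Snap47 and Pclo. Syn1 was at 334, 433, 333 and 393 CPM in naïve and 280, 376, 372 and 307 CPM in stress INPUT, a log2 ratio of −0.16 ± 0.10 (limma adjusted p = 0.994). Snap47 was at 369, 366, 329 and 336 CPM after stress, a ratio of 0.09 ± 0.0595 (limma adjusted p = 0.994). Pclo was at 697, 897, 560 and 806 CPM in naïve and 601, 646, 741 and 609 CPM in stress INPUT, a ratio of −0.17 ± 0.12 (limma adjusted p = 0.994). Naïve and stress values overlapped for all 3.

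**Figure D5:**
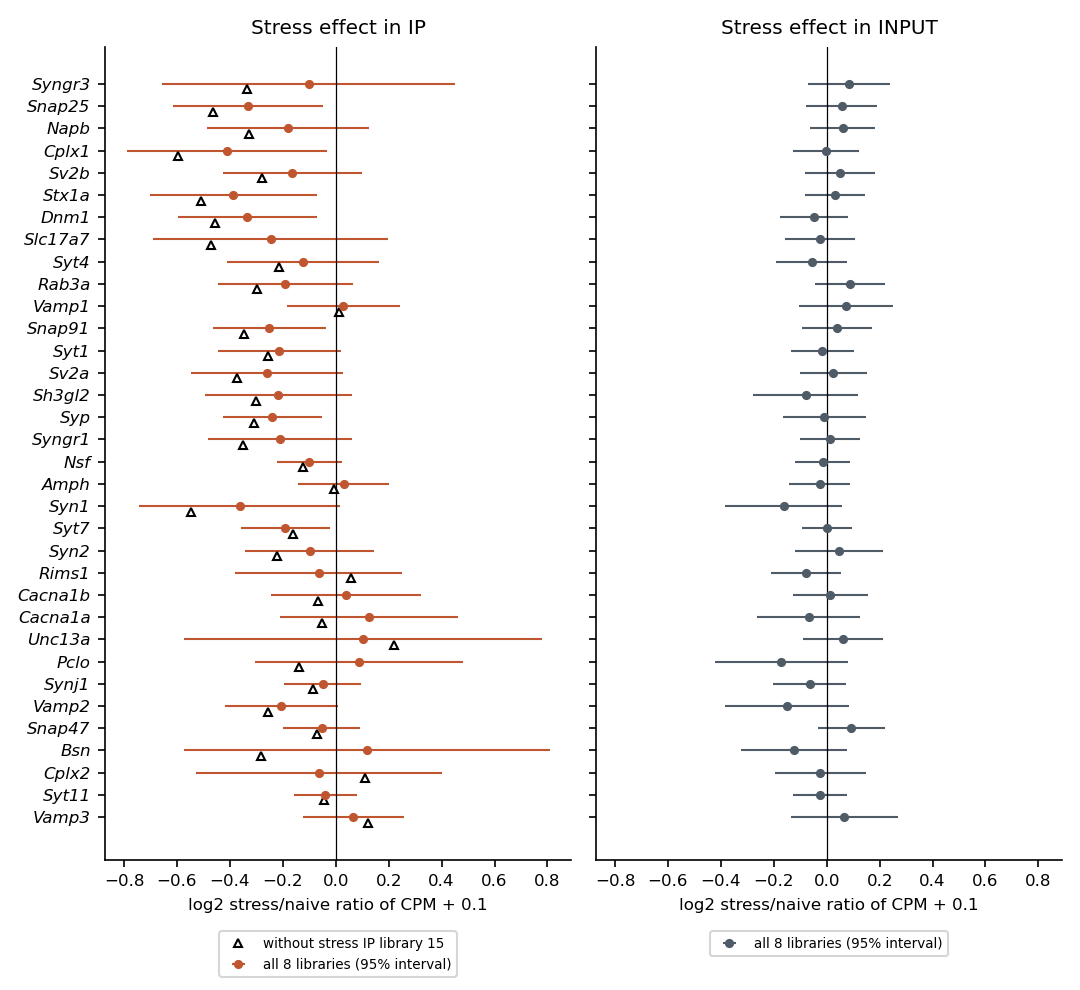
Log2 stress/naïve ratio (x axis) of the 34 genes (y axis, ordered by the naïve IP/INPUT ratio) in IP (left) and INPUT (right), with 95% intervals from 4 stress and 4 naïve libraries. Triangles give the IP ratio without stress library 15. In IP 26 of 34 ratios are below 0 (6383 of 12501 over all genes), in INPUT 18 of 34 (6952 of 13577). No gene of the 34 passed the test in either fraction with all libraries.

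The difference between the stress effects in IP and INPUT was tested on all 16 libraries. None of the 34 genes passed (limma, against 0.0225% of 13341 genes), limma-voom called 0, and 4 had an unadjusted p under 0.05, against 4.71%. The smallest p belonged to Stx1a, with a difference of −0.42 ± 0.16 on the log2 scale (limma adjusted p = 0.949). Snap25 followed at −0.39 ± 0.16 and Snap91 at −0.29 ± 0.12 (limma adjusted p = 0.982 for both). Snap91 was at 33.5, 31.9, 30.2 and 34.9 CPM in naïve IP and 25.9, 26.1, 24.8 and 33.5 CPM in stress IP, and at 459, 509, 519 and 486 CPM in naïve INPUT and 480, 566, 491 and 490 CPM in stress INPUT. Without library 15, 0 passed (limma, 0.0374% of all genes), 14 had an unadjusted p under 0.05 (7.58% of all genes), and the smallest adjusted p was 0.117, for Cplx1. Of the wider vesicle list, none passed for stress among 92 genes tested in IP and 95 in INPUT, or between the fractions (limma). The smallest limma adjusted p was 0.214 for Rab3gap1 in IP, at 0.22 ± 0.058, and limma-voom called 0. At an unadjusted p under 0.05 there were 4 genes in IP, 3 in INPUT and 3 between them. The shares over all genes were 8.27%, 5.03% and 4.71%.

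With all libraries kept, the 34 genes varied more between IP libraries than between INPUT libraries. The median coefficient of variation was 11.4% in naïve IP and 17.9% in stress IP, against 6.33% and 7.34% in INPUT. No such median over all genes was computed. Most of the 34 genes also had far fewer reads in IP, and the part of read number in this spread was not tested. The stress IP figure includes library 15, the highest of its group for 26 of the 34 genes, and no figure without it was computed. Sv2b, at 17.2% in stress IP, had 40.8, 39.3 and 41.2 CPM in libraries 4, 5 and 6 and 55.6 CPM in library 15. Syt11 was the steadiest in naïve IP at 2.9%. Unc13a was the most variable in naïve IP at 45.6%, with 80.8, 201, 80.8 and 145 CPM, and in stress IP it was at 161, 84.3, 188 and 98.8 CPM. In INPUT its values stayed between 505 and 626 CPM. Bsn was the most variable in stress IP at 67.4%, through library 15.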

How the data were processed

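RNA from IP and INPUT of the somatosensory cortex was sequenced in 16 libraries. Per the methods, STAR alignment to mm10 was followed by HTSeq counting over RefSeq genes. The authors deposited log2 values, which are log2 CPM of 24060 genes in each library, neither divided by gene length nor scaled across libraries. The values gave whole reads within 0.1 read, and no 2 libraries were identical. Groups came from the labels. CPM was recovered and compared as log2(CPM + 0.1) with limma 3.58.1 in R 4.3.3 (lmFit, eBayes with a variance trend), keeping genes whose mean over the compared libraries exceeded 1 CPM. The threshold was a Benjamini-Hochberg adjusted p of 0.05 over all genes kept. This fit was tested on simulated data. IP was compared with INPUT in naïve and in stressed mice, stress with naïve in IP and in INPUT, and both stress effects with each other. Single genes had a two-sided exact permutation test.

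Members, lists and tests were chosen with earlier results of these data known. All 34 genes are named, with values per library for the 6 highest and 6 lowest naïve ratios, for genes whose call changes with the scaling, and for the 3 smallest p of each stress comparison. Of the wider vesicle list, the 5 highest and 5 lowest ratios and stress calls are named, and both ratios of each pair of relatives. Cplx1, Dnm1, Snap25, Snap91, Bsn, Unc13a and Camk2b were also described for values seen in the data. Roles were assigned by hand. Exon lengths are the union of GENCODE M21 exons of transcripts linked to RefSeq, on GRCm38, which is mm10. The alternatives tried were a pseudocount of 1 or 0.01 CPM, omitting the filter or raising it to 5 CPM, median-ratio rescaling, quantile normalization, limma-voom fitted to reads recovered from CPM (also with median-ratio factors), no variance trend, the median of the reference genes in place of their mean, and each library left out. Fits relative to the reference in stressed mice and for stress in IP were added after the data were seen. Scripts ran in Python 3.11.15. Versions of STAR and HTSeq are not given in the sources used here. Reads after PCR are not independent molecules.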

Additional observations from a re-analysis of the deposited data

Results flagged for a closer look

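In each group of 4 libraries, the highest or lowest value of a gene was set against the range of its group. A single library lay beyond Dixon's 95% limit for 4 values in 13 of 136 gene and group combinations. Independent values with a normal spread would give about 6.8. No share of all genes under the same rule stands beside these counts. Of the 13, 7 lay in stress IP library 15, all of them high. These were Bsn (477 CPM, against 145 to 166 in the other 3), Pclo (265 CPM, against 137 to 147), Slc17a7 (85.6 CPM, against 41.0 to 48.6), Syngr1 (63.8 CPM, against 40.9 to 44.6), Sv2b (55.6 CPM, against 39.3 to 41.2), Napb (48.9 CPM, against 31.8 to 33.6) and Snap91 (33.5 CPM, against 24.8 to 26.1). The 20 neuronal reference genes summed to 909 CPM in this library and to 719 to 737 CPM in the other 3, and 12 of the 20 had their highest value there. Such a lead was also seen in other groups. Naïve IP library 13 was the highest of its group for 12 of the 20, with a sum of 976 CPM, and stress INPUT library 9 for 14.

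In stress INPUT, library 9 was high for Snap91 (566 CPM, against 480 to 491) and Slc17a7 (1250 CPM, against 1080 to 1110). In naïve IP, Amph was low in library 11 (27.2 CPM, against 30.1 to 30.4), Sh3gl2 in library 2 (10.5 CPM, against 13.8 to 14.1) and Napb in library 8 (33.1 CPM, against 43.1 to 44.8). In naïve INPUT, Sh3gl2 was low in library 3 (139 CPM, against 156 to 159).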

How the results depend on the processing

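The count of depleted genes was 32 in naïve and in stressed mice under the alternatives run, except for 33 under quantile normalization, and genes changed by stress in INPUT or between the fractions stayed at 0. No paired analysis was possible because the labels give each library its own number, with none shared between groups. Rescaling by the median ratio, with limma or with limma-voom, counted 2 genes higher in IP in naïve and 2 in stressed mice, and moved the median log2 ratio of the 34 genes to −2.68 and −2.84. Quantile normalization moved it to −3.03 and −3.14. The all-gene median moved with these scalings, from −0.64 to −0.0005 and 0.017 in naïve mice. Syt11 turned to 0.55 in naïve mice under rescaling by the median ratio, with limma and with limma-voom. Genes changed by stress in IP ranged from 0 to 3 when each library was left out in turn, with 3 only without stress IP library 15, and genes above and below the neuronal reference from 18 to 20 and from 10 to 13. With the median of the reference genes these were 20 and 8, in place of 19 and 12. The lowest read count of the 34 genes in any library was 59, for Syngr3, and Cplx3 of the wider list had as few as 2 reads in stress IP.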
